A study of Mus musculus with 10 samples.

Results

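The genes described here encode RNA polymerase II and the large complexes that work with it at promoters and along genes: Mediator, Integrator, the TBP-associated factors (TAFs) and the general initiation factors named GTF2. They were chosen by symbol alone (Polr2a to Polr2m, Med, Ints or Taf followed by a digit, and Gtf2), with no measured value used, and they comprise 95 of the 20982 distinct genes in the series. The embryonic table lists 67 of them among 15498 genes, and the adult table lists 93 among 15989. The E15.5 set holds 8 polymerase subunits, 24 Mediator genes, 8 Integrator genes, 13 TAF-named genes and 13 GTF2-named genes, plus Med9os, which is antisense to Med9. The adult set holds 13, 29, 15, 21 and 15 genes of those classes. The 13 include Polr2m, which was classed as associated with the polymerase and not as its subunit.

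RNA-seq was made from hearts of C57BL/6 mice. In the embryonic model (E15.5), 3 whole-heart samples of Larp7-/- embryos (KO) were set against 3 of Larp7+/+ embryos (WT). At 4 months of age, apex tissue of 2 Myh6Cre;Larp7f/f samples (mCKO), in which Cre is driven by the cardiomyocyte promoter of Myh6, was set against 2 Larp7f/f samples (CTR), which carry the floxed alleles and no Cre by their labels. That promoter targets cardiomyocytes and not the other cells of the heart. The labels do not tell whether replicates are different animals, and the p-values thus reflect variation among these samples alone, which may be technical.

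RNA polymerase II transcribes protein-coding genes and most genes of spliceosomal small nuclear RNAs. General factors and TFIID, which is built from TBP and TAFs, place the enzyme at a start site, and Mediator connects it to activators bound at enhancers. Integrator cleaves nascent RNA at small nuclear RNA genes and at paused protein-coding genes. LARP7 binds 7SK RNA in the particle that holds the kinase P-TEFb inactive, and free P-TEFb phosphorylates the carboxy-terminal repeats of Polr2a, the largest polymerase subunit, to release paused enzyme.

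Values are the deposited per-million values, called units below and rounded to whole numbers; each sample sums to between 998498 and 1001508, sequencing depth is unknown, and levels were not compared between genes. Knockout and control values of the same replicate number add up to a constant, within 2, in 67 of 67 listed genes of the set in the embryo and in 93 of 93 in the adult, so the SDs of the groups in a comparison mirror each other and are not independent. Larp7 itself was 45, 54 and 40 units in KO hearts, against 96, 88 and 103 units in WT hearts, a log2 change of -1.04 ± 0.17 (SE, limma adjusted p = 0.00159). In the adult it was 26 and 24 units in mCKO apex, against 26 and 28 units in CTR apex (log2 change -0.11, limma adjusted p = 0.933), so Larp7 RNA does not check the adult labels. Number 3 at E15.5 stood apart in summed erythroid markers (6 of 6 listed), at 9211 units in KO and 3006 in WT, whereas numbers 1 and 2 were 4663 and 4633 in KO and 7552 and 7583 in WT. KO number 1 had a summed level of 215 units for 5 of 6 listed stratified epithelium markers, against 57 to 96 in the WT samples and 59 and 61 in the other KO samples. Summed cardiomyocyte markers were 12848 to 16189 in KO and 17596 to 20938 in WT hearts (5 of 10 markers listed, without Actn2, Myh6, Myh7, Ryr2 and Pln), and 59767 and 60396 in mCKO and 63181 and 63810 in CTR apex (10 of 10 listed). Summed fibroblast markers were 2898 to 3662 in KO and 2178 to 2944 in WT hearts (4 of 6 listed), and 1717 and 1852 in mCKO and 1008 and 1142 in CTR apex (6 of 6 listed). Epicardial markers were 112 to 179 in KO and 86 to 153 in WT hearts (2 of 4 listed), and 63 and 96 in mCKO and 52 and 18 in CTR apex (4 of 4 listed). Adult erythroid markers (6 of 6 listed) were 1270 and 2879 in mCKO and 1482 and 127 in CTR apex, so the groups were close at number 1 and far apart at number 2. Single markers did not all follow the sums. By limma with adjusted p-values, 1 adult cardiomyocyte marker was called higher in mCKO apex and 0 lower, although the median log2 change was -0.09. In the adult, 1 epicardial marker was also called higher. At E15.5, 1 fibroblast marker was called higher in KO, 1 smooth muscle and pericyte marker (2 of 5 listed) lower, and 0 cardiomyocyte markers either way. No listed marker was at 0 throughout, and the part of these marker shifts in the results below was not tested. In bulk tissue, fewer cells of a type and less RNA per cell cannot be told apart.

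The promoters of Polr2a and Polr2l are shown because these are the polymerase subunits with the highest and the lowest log2 change at E15.5. Each is the 250 bases before the RefSeq start (GRCm38.p6), 5′ to 3′ on the gene's own strand, with the TATA box TATAAA and the GC box GGGCGG in capitals. Polr2a lies on chr11:69733997-69758637 (minus strand) and its promoter on chr11:69758634-69758883. Polr2l lies on chr7:141471860-141475132 (minus strand) and its promoter on chr7:141475154-141475403.
Polr2a: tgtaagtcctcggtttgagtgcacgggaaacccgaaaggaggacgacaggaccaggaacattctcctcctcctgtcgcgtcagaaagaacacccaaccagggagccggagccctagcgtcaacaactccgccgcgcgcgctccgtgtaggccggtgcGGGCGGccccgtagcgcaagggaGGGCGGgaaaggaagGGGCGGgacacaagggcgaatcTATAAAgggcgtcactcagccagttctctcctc
Polr2l: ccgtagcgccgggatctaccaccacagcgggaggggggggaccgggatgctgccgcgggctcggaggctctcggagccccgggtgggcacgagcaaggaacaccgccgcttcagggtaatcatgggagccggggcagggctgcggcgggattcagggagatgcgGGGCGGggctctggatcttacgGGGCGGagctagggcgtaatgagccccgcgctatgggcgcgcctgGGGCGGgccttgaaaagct

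The Polr2a window holds 1 TATAAA, which begins 33 bases before the start, and 3 GGGCGG, and 62.8% of its bases are G or C. The Polr2l window holds no TATAAA and 3 GGGCGG, and 71.2% of its bases are G or C, against a median of 52.4% over all promoters in the table. Searched on both strands, TATAAA was found in 11.6% of the 95 promoter windows of 80 of these genes and in 12.4% of all 32851 windows. GGGCGG was found in 62.1% and 32.7% of those windows, and CCAAT in 41.1% and 33.8%. These matches describe the letters in the windows and are not shown to be bound sites.

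At E15.5 no gene of the set passed the test in either direction: 0 of 66 tested were called higher or lower in KO hearts by limma at an adjusted p of 0.05 over all 13609 tested genes, where 0.529% were called higher and 0.103% lower. Med9os was listed at 0 in all 3 KO samples and at 0, 1 and 1 units in WT, and was not tested. At an unadjusted p of 0.05, 3 of the 66 were higher and 4 lower, where 10.3% and 3.62% of all tested genes were. The log2 change was positive in 37 and negative in 29, with a median of 0.05, beside 0.11 for all tested genes. All KO values lay above all WT values in 14 of the 66 (21.2%) and below them in 14 (21.2%), where 19.3% and 8.75% of all tested genes did so.

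In the adult apex 1 of 93 genes rose, Polr2a, and 0 fell, where 2.34% of 14835 tested genes were called higher and 0.95% lower. At an unadjusted p of 0.05, 2 of the 93 were higher and 0 lower, where 9.05% and 3.3% of all tested genes were. The log2 change was positive in 56, negative in 22 and 0 in 15, and its median of 0.08 was that of all tested genes, also 0.08. The mCKO values lay above the CTR values in 30 of the 93 (32.3%) and below them in 7 (7.53%), where 29.3% and 12.8% of all tested genes did so.

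**Figure D1:**
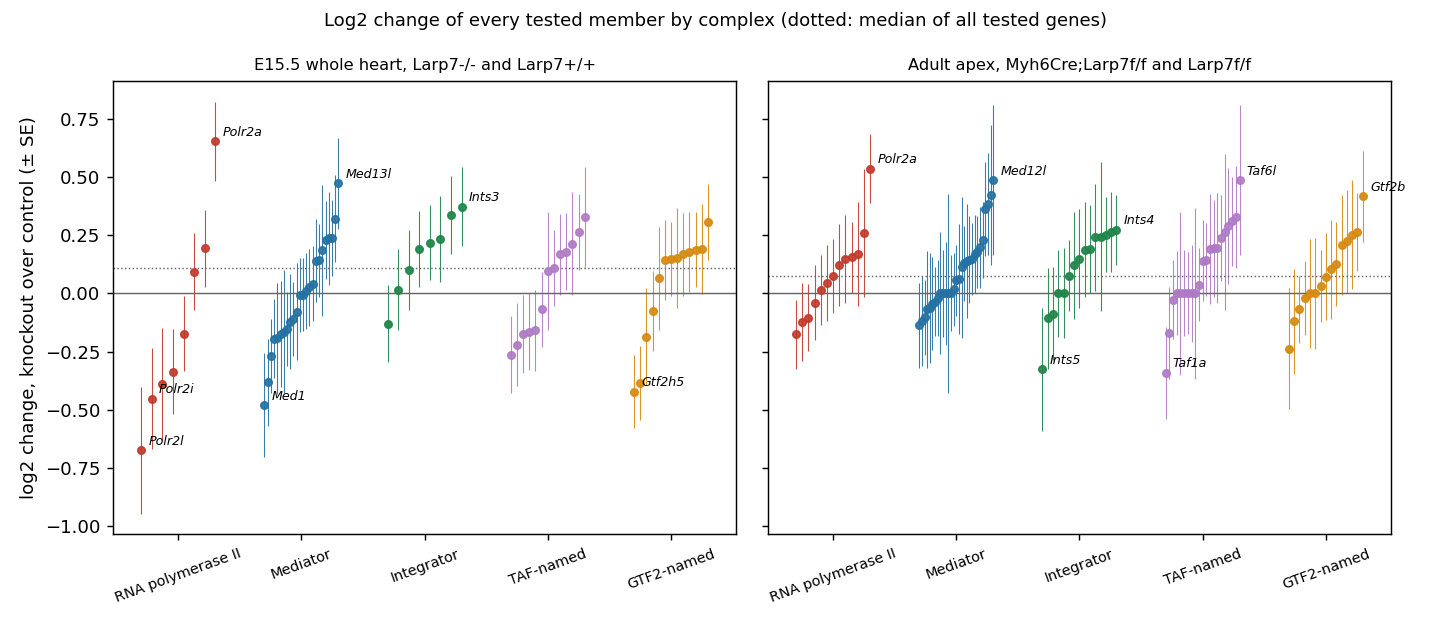
Log2 change, knockout over control, of each tested gene with its SE (bars), by complex, for E15.5 whole heart (left) and adult apex (right); the dotted line is the median of all tested genes. Polymerase subunits spread from -0.67 (Polr2l) to 0.65 (Polr2a) at E15.5, wider than any other complex.

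Polr2a, which carries the catalytic centre and the phosphorylated repeats, had the largest positive change of the set in both hearts. At E15.5 it measured 157, 151 and 183 units in KO hearts, against 111, 117 and 85 units in WT hearts. Every KO value was above every WT value, and the gap was widest at number 3. The log2 change was 0.65 ± 0.17 (SE; means 163.7 ± 17.0 in KO and 104.3 ± 17.0 in WT, SD, n = 3 each) and did not pass the adjusted threshold (limma, unadjusted p = 0.000637, adjusted p = 0.065). Without number 3, the number at which the summed erythroid markers stood apart, it was 0.43 with a limma adjusted p of 0.494 (KO 3 left out) or 0.495 (WT 3 left out). Without number 2 it was 0.80 and passed (limma adjusted p = 0.000508 or 0.000468). Those fits called 3.66% and 3.75% of all tested genes, against 0.632% in the main fit. The Polr2a result is given here under further settings. Polr2a also passed with no replicate block (limma adjusted p = 0.0487), with a pseudocount of 5 (0.029) and with no filter on low values (0.00745). It did not pass with no rounding variance (limma adjusted p = 0.473 with the block, 0.0637 without it) or with a pseudocount of 0.5 (0.0919). Nor did it pass with a mean of at least 10 (limma adjusted p = 0.332), median-of-ratios scaling (0.148) or eBayes without trend and robust options (0.529). The authors' deposited table gives Polr2a a log2 fold change of 0.58, a p of 0.00834 and an adjusted p of 0.158 at E15.5.

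In the adult, Polr2a rose to 88 and 71 units in mCKO apex, against 46 and 64 units in CTR apex. The samples did not overlap, but number 1 held most of the difference: the log2 change within number 1 was 0.92 and within number 2 it was 0.15. The log2 change was 0.53 ± 0.15 (SE, limma adjusted p = 0.0151; means 79.5 ± 12.02 in mCKO and 55 ± 12.7 in CTR, SD, n = 2 each), with an SE that rests on spread pooled over genes; on simulated data this fit made more false calls in the adult than the nominal share. The call was lost with no replicate block (limma adjusted p = 0.196), with no rounding variance (0.62 with the block, 0.42 without it) and with eBayes without trend and robust options (0.633). Fits that leave out a sample also have no block, and assume that the lone sample of a group varies like the other group and like other genes. Their log2 change was 0.38 without mCKO 1 (limma adjusted p = 0.0733), 0.30 without CTR 1 (0.171), 0.69 without mCKO 2 (1.81e-05) and 0.77 without CTR 2 (1.13e-07), to be read beside the 0.196 of the fit with all samples and no block. Number 2 is the number at which the summed erythroid markers of mCKO and CTR lay far apart. The authors' deposited table gives a log2 fold change of 0.47 with a p of 0.214 in the adult.

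**Figure D2:**
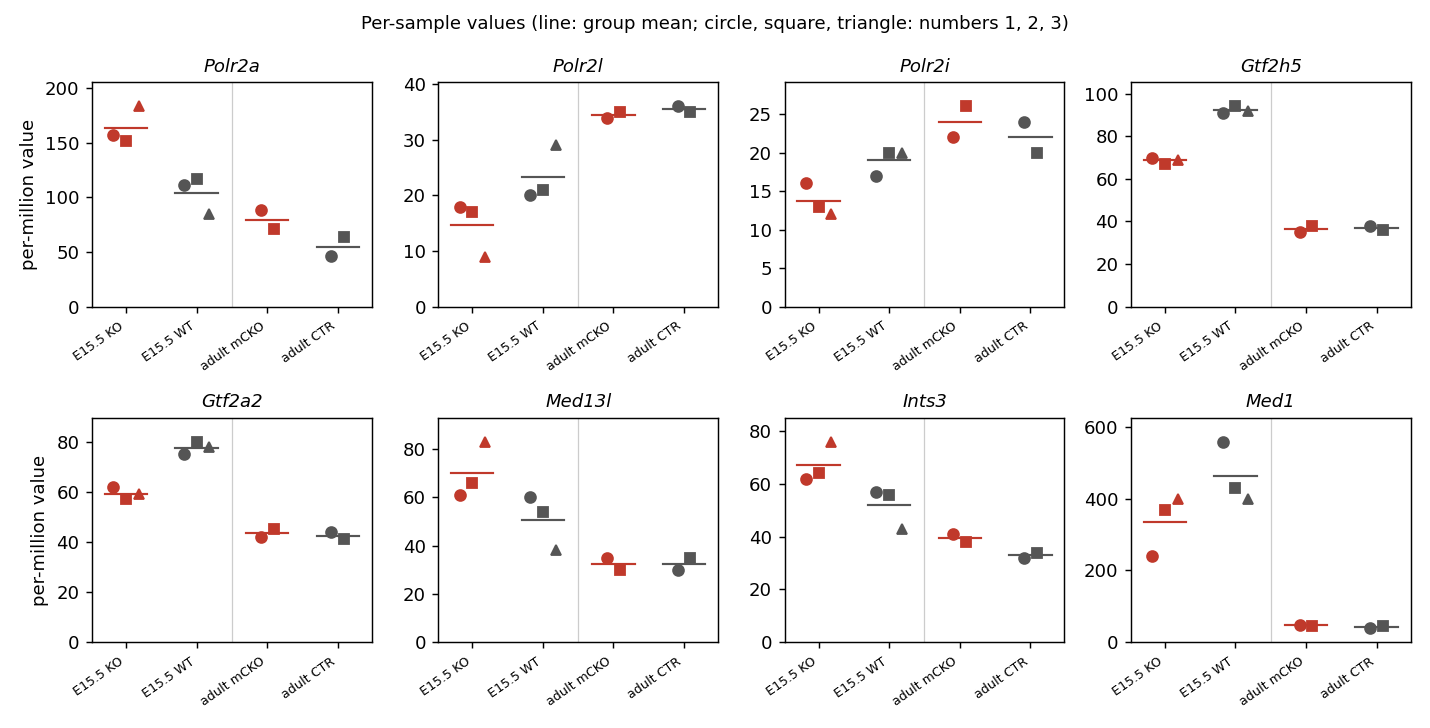
Per-million value of 8 genes in each sample (circle, square and triangle for numbers 1, 2 and 3; line, group mean), knockout left of its control in each model. Polr2a is higher in knockout in both models (means 163.7 in KO and 104.3 in WT hearts, 79.5 in mCKO and 55 in CTR apex), whereas Gtf2h5, Gtf2a2 and Polr2l separate the groups at E15.5 and not in the adult.

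The small polymerase subunits Polr2l, Polr2i, Polr2k and Polr2j lay on the other side of Polr2a at E15.5. Polr2d, Polr2f, Polr2g and Polr2h, also small, were not listed at E15.5, and the shared subunit Polr2e was at 0.09. Polr2l, a small subunit shared by the nuclear RNA polymerases, measured 18, 17 and 9 units in KO hearts, against 20, 21 and 29 units in WT hearts (log2 change -0.67 ± 0.27, SE, limma adjusted p = 0.298). The KO values were all lower, mostly through number 3, and without number 3 the log2 change was -0.22 (limma adjusted p = 0.893 or 0.89). Polr2l passed without number 2 (log2 change -0.86, limma adjusted p = 0.0306 or 0.0349) and with no filter (0.0455). In these fits 3.66%, 3.75% and 3.88% of all tested genes were called, against 0.632% in the main fit. In the adult Polr2l was 34 and 35 units in mCKO, against 36 and 35 units in CTR (log2 change -0.04).

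Polr2i, which is known for its part in transcriptional fidelity, measured 16, 13 and 12 units in KO hearts, against 17, 20 and 20 units in WT hearts (log2 change -0.45, limma adjusted p = 0.343). Polr2k, another subunit shared by the nuclear polymerases, was 9, 9 and 8 units in KO, against 11, 12 and 12 units in WT (-0.39, limma adjusted p = 0.499). Polr2j, which pairs with Polr2c in the assembly of the enzyme, was 37, 27 and 38 units in KO, against 40, 50 and 39 units in WT (-0.34, limma adjusted p = 0.416). In each of these genes the KO samples were all below the WT samples and the levels of Polr2i and Polr2k were low, and none passed the test. Polr2c was also non-overlapping, at 126, 109 and 126 units in KO and 130, 147 and 130 in WT (-0.17). The polymerase subunits at E15.5 thus had 1 gene with KO above and 5 below among 8 (12.5% and 62.5%, where 19.3% and 8.75% of all tested genes were), with a median log2 change of -0.25.

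The large catalytic partner of Polr2a did not separate the groups. Polr2b was 94, 116 and 101 units in KO hearts, against 100, 79 and 93 units in WT hearts (log2 change 0.19, limma adjusted p = 0.632). In the adult it was 54 and 49 units in mCKO apex and 48 and 54 in CTR apex (0.01). Polr2e, a shared subunit, was lower in the adult at 64 and 58 units in mCKO, against 66 and 72 in CTR (-0.18, limma adjusted p = 0.767; -0.11 without mCKO 2 or CTR 2), and overlapped at E15.5 (105, 89 and 109 in KO, 90, 107 and 87 in WT). The adult median over 13 polymerase genes was 0.07, with 4 above and 3 below (30.8% and 23.1%, where 29.3% and 12.8% of all tested genes were). The associated gene Polr2m is among the 3 below.

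Among the general initiation factors, Gtf2h5 and Gtf2a2 had the tightest separation at E15.5. Gtf2h5, the smallest subunit of the helicase-containing factor TFIIH, measured 70, 67 and 69 units in KO hearts, against 91, 94 and 92 units in WT hearts. Both groups were narrow and lay far apart relative to their spread. The log2 change was -0.42 ± 0.16 (SE, limma unadjusted p = 0.0119, adjusted p = 0.213). Gtf2a2, the small subunit of TFIIA, which steadies TBP on DNA, measured 62, 57 and 59 units in KO, against 75, 80 and 78 units in WT (-0.38 ± 0.16, SE, limma adjusted p = 0.263). Both passed with no replicate block (limma adjusted p = 0.0249 and 0.0349), a fit that counts the mirrored deviations as independent. In the adult both overlapped: Gtf2h5 was 35 and 38 units in mCKO and 38 and 36 in CTR, and Gtf2a2 was 42 and 45 in mCKO and 44 and 41 in CTR.

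Of all 13 GTF2-named genes at E15.5, 9 had a positive log2 change (69.2%, where 60.4% of all tested genes did), with a median of 0.15 beside 0.11 for all tested genes. Gtf2ird1, a relative of the signal-responsive factor TFII-I, was 54, 56 and 61 units in KO, against 49, 47 and 42 units in WT (0.30, limma adjusted p = 0.409; 0.19 without number 3). Gtf2e1, the large subunit of TFIIE, was 55, 53 and 53 units in KO, against 46, 47 and 48 units in WT (0.19, limma adjusted p = 0.634). In both genes the groups stood apart without passing the test, although Gtf2e1 did pass with neither the block nor the rounding variance (limma adjusted p = 0.0455). In the adult, Gtf2b, which encodes TFIIB and bridges TBP and polymerase, was 18 and 20 units in mCKO, against 15 and 13 units in CTR (0.42, limma unadjusted p = 0.0331, adjusted p = 0.315). It overlapped at E15.5, with 33, 29 and 41 in KO and 31, 35 and 24 in WT. Gtf2f1, the large subunit of TFIIF, was 34 and 30 in mCKO and 25 and 28 in CTR (0.26, limma adjusted p = 0.597).

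TAF-named genes had few separated values at E15.5, with 1 of 13 above (7.69%, where 19.3% of all tested genes were) and 2 below (15.4%, where 8.75% were). Taf5l, a TAF5 relative in SAGA-type coactivators, was 62, 60 and 55 units in KO, against 46, 48 and 53 units in WT (0.26, limma adjusted p = 0.496). Taf15, an RNA-binding protein of the FET family, was 51, 54 and 43 units in KO, against 57, 55 and 66 in WT (-0.26, limma adjusted p = 0.5; -0.09 without number 3). Taf10, shared by TFIID and SAGA, was 251, 272 and 276 units in KO, against 316, 295 and 291 in WT (-0.17, limma adjusted p = 0.683; -0.10 without number 1). Taf10 overlaps Ilk on the opposite strand by 3533 bases in GENCODE M21, and the sources used here do not give the strand setting of the counting, so reads of these genes may not be told apart. The same limit holds for Taf5l with Gm20388 (25080 bases), Polr2c with Dok4 (9708), Ints8 with Ccne2 (5622), Med29 with Gm44710 (6369), Med26 with Gm17435 (10939), Med13 with Brip1os (37411) and Med12l with several genes, all on opposite strands, and Taf9 shares 4482 bases with Ak6 on the same strand. None of the TAF values passed the test.

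In the adult, 8 of 21 TAF-named genes were above (38.1%, where 29.3% of all tested genes were) and 1 below (4.76%, where 12.8% were), with a median of 0.14 beside 0.08 for all tested genes. Taf13, a histone-fold TFIID subunit, was 14 and 14 units in mCKO, against 10 and 12 in CTR (0.33, limma adjusted p = 0.619; 0.21 without CTR 1). Taf2, the TFIID subunit that contacts the initiator, was 23 and 21 units in mCKO, against 18 and 19 in CTR (0.24, limma adjusted p = 0.701). Taf1a is a subunit of SL1, which serves polymerase I, and it was 14 and 14 units in mCKO, against 18 and 18 in CTR (-0.34, limma adjusted p = 0.506). With these values identical inside each group, Taf1a passed when the rounding variance was left out (limma adjusted p = 0.028 with the block). The paralogs Taf9 and Taf9b could be compared only at E15.5: Taf9 was 153, 146 and 155 units in KO and 157, 164 and 155 in WT, and Taf9b was 35, 49 and 36 in KO and 36, 23 and 37 in WT, and in both the groups overlapped.

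Of the 24 Mediator genes at E15.5, 11 had a positive and 13 a negative log2 change (median -0.01), with 4 above (16.7%, where 19.3% of all tested genes were) and 5 below (20.8%, where 8.75% were). The kinase module, which can detach from Mediator and restrain its contact with polymerase, had a median of 0.23 over 4 genes. Its member Med13l was 61, 66 and 83 units in KO, against 60, 54 and 38 units in WT (0.47 ± 0.19, SE, limma adjusted p = 0.289). The groups were close at number 1 and far apart at number 3, and without number 3 the log2 change was 0.15. Its paralog Med13 was 75, 75 and 72 in KO and 66, 67 and 68 in WT (0.14). Med12 was 37, 39 and 49 in KO and 37, 37 and 26 in WT (0.32), and its paralog Med12l was 19, 17 and 18 in KO and 19, 21 and 19 in WT (-0.12).

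Med1, the subunit through which nuclear receptors contact Mediator, had the largest negative change of the complex at E15.5. It measured 239, 369 and 399 units in KO hearts, against 558, 429 and 400 units in WT hearts (-0.48 ± 0.22, SE, limma adjusted p = 0.36). The difference was large at number 1 and nearly nil at number 3. Without number 1, whose KO sample also had the high epithelial marker sum, the log2 change was -0.11 (limma adjusted p = 0.963 or 0.961). Without number 2 Med1 passed (-0.61, limma adjusted p = 0.0208 or 0.0204), in fits that called 3.66% and 3.75% of all tested genes. The authors' deposited table gives -0.53 with a p of 0.0131 and an adjusted p of 0.19. Med29 was 28, 21 and 25 units in KO, against 29, 36 and 32 in WT (-0.38, limma adjusted p = 0.358; -0.20 without number 2), and Med26, which docks elongation factors, was 20, 22 and 21 in KO, against 18, 17 and 18 in WT (0.24, limma adjusted p = 0.63).

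In the adult, 16 of 29 Mediator genes were positive (55.2%, where 57.9% of all tested genes were), 8 negative and 5 at 0 (median 0.06), with 9 above (31%, where 29.3% were) and 1 below (3.45%, where 12.8% were). Med17, a scaffold of the head, was 17 and 17 units in mCKO, against 13 and 13 in CTR (0.36, limma adjusted p = 0.472). Med30 was 14 and 14 units in mCKO, against 11 and 10 in CTR (0.38, limma adjusted p = 0.495). Med28 was lower, at 32 and 33 in mCKO, against 36 and 34 in CTR (-0.10, limma adjusted p = 0.929; -0.06 without CTR 1), and was also lower at E15.5, at 80, 74 and 83 in KO, against 94, 101 and 91 in WT (-0.27, limma adjusted p = 0.469). Med13l and Med26, above at E15.5, overlapped in the adult (log2 change 0.00 and -0.07).

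No Integrator gene passed the test in either model. At E15.5, 7 of 8 had a positive log2 change (87.5%, where 60.4% of all tested genes did), with a median of 0.20. Of the 8, 3 were above (37.5%, where 19.3% of all tested genes were) and 0 below (where 8.75% were). These counts leave out subunits listed at E15.5 under older symbols. They are Asun (Ints13, log2 change -0.24), Ddx26b (Ints6l, -0.07) and Cpsf3l (Ints11, 0.16), and in each the groups overlapped. The 8 genes have long coding sequences, from 461 codons (Ints12) to 2222 (Ints1). Among all tested genes of 500 codons or more and under 1000, 22.2% were negative and 30% above (median 0.19). Among those of 1000 codons or more, 16.8% were negative and 38.8% above (median 0.20). The Integrator values are thus not shown to differ from those of genes of like length. Ints3, which also belongs to a single-stranded DNA-binding complex of the DNA damage response, was 62, 64 and 76 units in KO, against 57, 56 and 43 units in WT (0.37 ± 0.17, SE, limma adjusted p = 0.312; 0.15 without number 3). In the adult it was 41 and 38 units in mCKO, against 32 and 34 in CTR (0.25, limma adjusted p = 0.597), so the groups were apart in both models. Ints7 was 137, 142 and 126 in KO, against 114, 109 and 125 in WT (0.22; 0.14 without number 2), and overlapped in the adult (14 and 16 in mCKO, 17 and 15 in CTR). Ints8 was 51, 57 and 52 in KO, against 49, 43 and 48 in WT (0.19).

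In the adult, 10 of 15 Integrator genes were positive (66.7%, where 57.9% of all tested genes were), 3 negative and 2 at 0 (median 0.15), and 5 were above (33.3%, where 29.3% were) and 0 below (12.8%). Ints4, which holds the RNA endonuclease of the complex, was 59 and 61 units in mCKO, against 50 and 49 in CTR (0.27, limma adjusted p = 0.464). At E15.5 it was 54, 66 and 66 in KO, against 56, 45 and 46 in WT (0.33, limma adjusted p = 0.369), where 1 KO value lay under 1 WT value. Ints13 was 28 and 30 units in mCKO, against 25 and 23 in CTR (0.26, limma adjusted p = 0.607). At E15.5 that gene is listed under its older symbol Asun, at 47, 67 and 66 in KO, against 84, 63 and 65 in WT (-0.24, limma adjusted p = 0.594). The endonuclease gene Ints11, listed there as Cpsf3l, was 61, 75 and 63 in KO, against 65, 50 and 63 in WT (0.16).

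At E15.5 the log2 change ran with the length of the coding sequence (longest coding sequence in GENCODE M21). The change was negative in all 13 genes under 200 codons (median -0.34), and in 8 of them every KO value was below every WT value. Polr2l (67 codons), Gtf2h5 (71), Gtf2a2 (109), Polr2i (125) and Polr2k are among them. Among all 1398 tested genes of that length, 59.7% were negative, 30% were below, and the median was -0.10. Of the 15 genes of 1000 codons or more, 11 were positive with a median of 0.14, where all genes of that length had 0.20; Polr2a (1970 codons) and Med13l (2216) are positive and Med1 (1575) is negative. Spearman's rho between log2 change and coding length was 0.603 across the 66 genes, 0.59 without Polr2a and 0.329 across the 53 genes of 200 codons or more, beside 0.28 across 10522 tested genes with a coding length. These are descriptions across genes, which share the same 6 samples and are not independent replicates, and the length limits were set with the values known. The 200-codon limit lies where the run of negative changes ends, so the all-negative count depends on it. Med29 (199 codons) was at -0.38, whereas Med22 (200), Med18 (208) and Polr2e (210) were at 0.03, 0.18 and 0.09. Med21, among the 13, was at -0.01. Of the 23 genes of 200 codons or more and under 500, 13 were positive and 10 negative (median 0.03). In the adult, rho was 0.117 across 93 genes, beside 0.054 for all genes with a coding length. The 18 genes under 200 codons had 12 positive and 6 negative changes there (median 0.09). Among all 1619 tested adult genes of that length, 31% were negative and the median was 0.07.

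**Figure D3:**
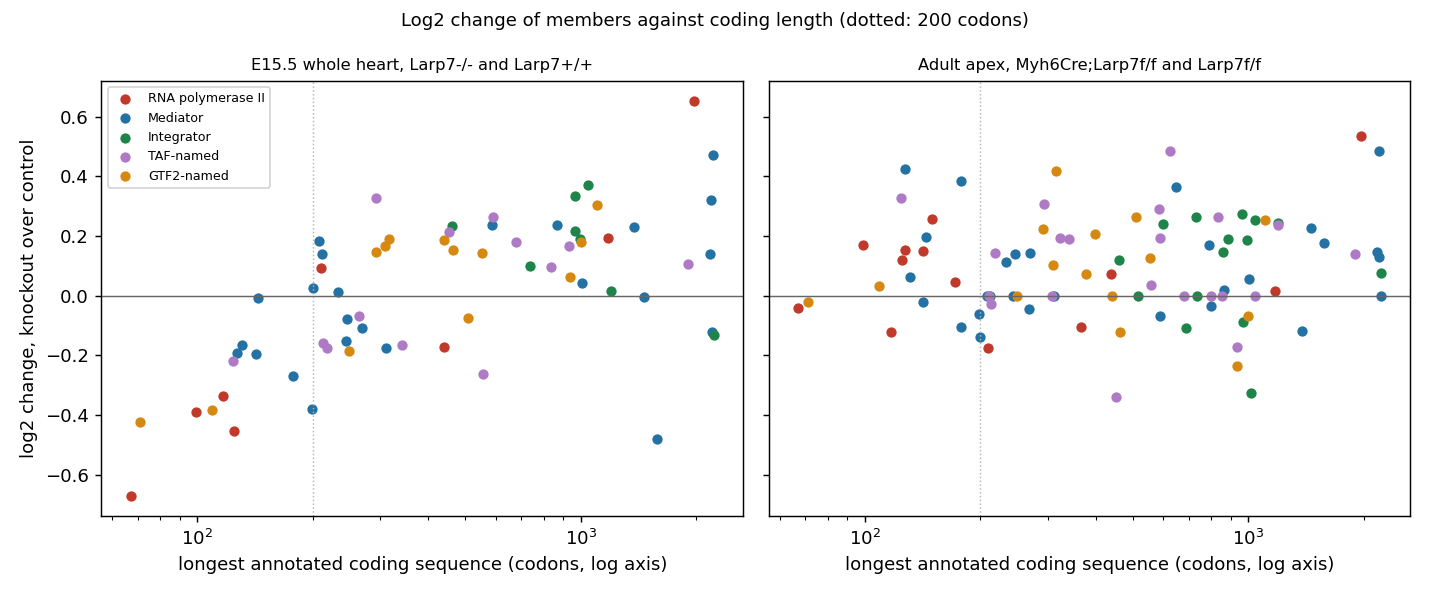
Log2 change, knockout over control, of each tested gene against its coding length in codons (log axis), coloured by complex, for E15.5 (left) and adult (right); the dotted line marks 200 codons. At E15.5 all 13 genes left of the line are negative, where 59.7% of all tested genes of that length are. The line was set with the values known and lies where the run of negative changes ends. In the adult 12 of 18 are positive and 6 negative, where 31% of all tested genes of that length are negative.

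Of the 65 genes tested in both, 29 had log2 changes of the same sign in both, 27 had opposite signs, and 9 were at 0 in a model. Spearman's rho of the log2 changes was 0.105 across these genes and 0.063 across the 64 without Polr2a; genes are not independent replicates. Knockout values were above control values in both models in 5 genes, namely Polr2a, Gtf2ird1, Ints3, Med13 and Ints8 (7.69%, where 8.5% of the 9769 genes tested in both were), and below in both in Med28 and Polr2j (3.08%, where 2.65% were). The tables were normalized separately and differ in tissue, age and genotype, so levels were not compared between them.

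**Figure D4:**
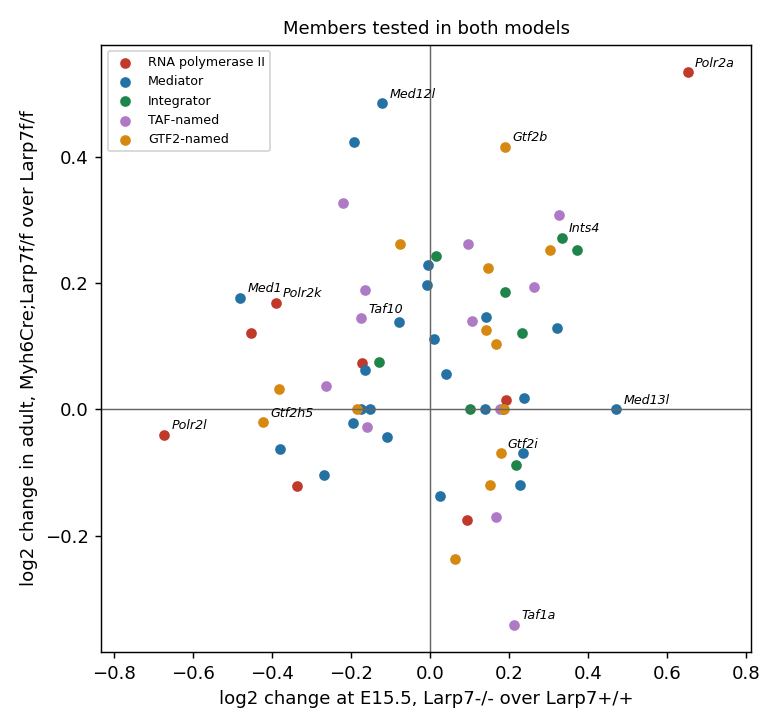
Log2 change in adult apex (mCKO over CTR, vertical axis) against log2 change at E15.5 (KO over WT, horizontal axis) for the 65 genes tested in both models, coloured by complex. Polr2a stands alone at the upper right (0.65 and 0.53), and the other 64 genes scatter around the origin (rho 0.063 without Polr2a).

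Other genes of the pathway were taken from lists by function. Of the remaining subunits of the same complexes, 0 of 11 were called at E15.5, where 0.632% of all tested genes were. Of the 11, 5 were positive (45.5%, where 60.4% of all were) and 6 negative, with 0 at a limma unadjusted p of 0.05. The 11 include Asun and Cpsf3l, the Ints13 and Ints11 described above, which count as Integrator genes in the adult. In the adult, 0 of 12 were called, where 3.29% of all tested genes were. Of the 12, 9 were positive (75%, where 57.9% of all were) and 3 negative, with 1 higher at a limma unadjusted p of 0.05 (9.05% of all were). Of 15 pausing and elongation factors tested at E15.5, 0 were called (limma, 0 at an unadjusted p of 0.05); 12 were positive (80%, where 60.4% of all tested genes were) with a median of 0.15, and KO was above WT in 8 (53.3%, where 19.3% were) and below in 2 (13.3%, where 8.75% were). Supt5, the DSIF subunit that P-TEFb phosphorylates, was 114, 122 and 118 units in KO, against 98, 91 and 96 in WT (0.31, limma adjusted p = 0.378). Aff4, the scaffold of the super elongation complex, was 200, 210 and 248 in KO, against 194, 185 and 147 in WT (0.33, limma adjusted p = 0.399). Nelfe, a subunit of the pausing factor NELF, was 39, 34 and 35 in KO, against 41, 46 and 45 in WT (-0.28, limma adjusted p = 0.471). In the adult, 0 of 19 were called (limma, 1 higher at an unadjusted p of 0.05), with 7 above (36.8%, where 29.3% of all tested genes were) and 1 below (5.26%, where 12.8% were) and a median of 0.08. Aff4 was 69 and 62 units in mCKO, against 50 and 56 in CTR (0.30, limma adjusted p = 0.379), and Supt5 overlapped at 82 and 72 in mCKO and 68 and 78 in CTR.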

How the data were processed

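Total RNA of mouse hearts was sequenced, per the labels' protocols; per the submitters' processing notes, HISAT2, HTSeq and the build mm10 were used (no versions given). The authors deposited, for each model, a per-million score per gene and sample, rounded to whole numbers; the sources used here do not say whether it is TPM or CPM or how it was scaled. The authors' tables also hold their own log2 fold changes and p-values, per the file headers. Depth is unknown, so no counting interval is given.

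Each table was fitted on its own with limma 3.58.1 (R 4.3.3), knockout over control, on log2(value + 1), so fold changes of low genes are understated. Genes with a value of 1 or more in at least as many samples as a group holds were tested, with Benjamini-Hochberg adjustment over all of them and a threshold of 0.05. Replicate number entered as a block, a rounding variance (0.0833) was added to each gene, and eBayes was run with its trend and robust options. The block answers the constant sums of same-numbered values: among genes averaging 10 or more they held in 8328 of 8366 (E15.5) and 8642 of 8658 (adult), and they make deviations of same-numbered samples mirror images (correlation across genes -0.80, -0.82 and -0.80 at E15.5, -0.81 in the adult). The labels state no pairing. Residual degrees of freedom are then 2 (E15.5) and 1 (adult); the median prior had 27.54 and infinite ones, so adult SEs rest on spread pooled over genes. On simulated data, false calls exceeded the nominal share, most in the adult.

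Genes, lists, tests and length limits were chosen with earlier results of these data known. Named genes are Larp7, Polr2a, every called gene, and per model and complex up to 2 genes with the largest positive and 2 with the largest negative change among those with a mean of at least 10 and groups that do not overlap; paralogs and genes beyond this, such as Polr2c, Polr2k at E15.5, Ints8, Supt5, Aff4, Nelfe, Polr1e and Polr3gl, were picked after their values were seen. Coordinates and coding lengths are from GENCODE M21 (95 of 95 genes matched) and promoters from RefSeq (80 of 95 genes matched).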

Additional observations from a re-analysis of the deposited data

Results flagged for a closer look

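Of the 65 genes tested in both models, 4 changed sides. In these every knockout value lay on the other side of the controls in the E15.5 model than in the adult. How many of all 9769 genes tested in both did so was not counted, so the 4 are not shown to be unusual. The difference between the models was not tested, and the tables differ in tissue, age and genotype. Med1 had a log2 change of -0.48 in KO over WT hearts and 0.18 in mCKO over CTR apex (49 and 45 units in mCKO, 39 and 44 in CTR). Polr2k had -0.39 in the embryo and 0.17 in the adult (12 and 13 units in mCKO, 11 and 11 in CTR). Taf10 had -0.17 in the embryo and 0.14 in the adult (42 and 40 units in mCKO, 36 and 38 in CTR). Gtf2i, which encodes TFII-I, ran the other way, with 0.18 at E15.5 (417, 468 and 428 units in KO, 407, 357 and 396 in WT) and -0.0693 in the adult (184 and 180 in mCKO, 189 and 193 in CTR). None of the 8 changes passed the adjusted threshold.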

How the results depend on the processing

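At E15.5 no gene of the set was called with the replicate block and the rounding variance. With no replicate block, 1 was called higher (Polr2a) and 2 lower (Gtf2a2 and Gtf2h5), and with neither block nor rounding variance 1 higher (Gtf2e1) and 3 lower (Gtf2a2, Gtf2h5 and Polr2k). A pseudocount of 5 gave 1 higher and 0 lower, and no filter 1 higher and 1 lower. Leaving out each sample gave 0 to 1 higher, 0 to 2 lower and a median log2 change of -0.03 to 0.0361; under the block, leaving out a sample also removes its same-numbered partner from the comparison. Median-of-ratios scaling moved the median to -0.0086. In the adult the 1 call (Polr2a) became 0 with no replicate block, 0 with eBayes with neither option, and 0 to 1 when each sample was left out, which was fitted without the block. Without the rounding variance 8 were called higher and 1 lower, with or without the block, and Polr2a was not among them. Crossing the replicate numbers gave 27 higher and 7 lower, since the constant sums then leave little residual spread; median-of-ratios scaling moved the adult median to 0.0145. Over all tested genes at E15.5, calls were 72 higher and 14 lower, against 430 and 174 with no replicate block, 701 and 339 with neither block nor rounding variance, 39 and 7 with a pseudocount of 0.5, 195 and 37 with 5, 480 and 121 with no filter, 26 and 13 with median-of-ratios scaling, and 0 with no rounding variance, with a mean of at least 10 or with eBayes with neither option. In the adult they were 347 and 141, against 833 and 297 without the rounding variance, 1133 and 489 with neither it nor the block, 4361 and 1924 with crossed numbers, and 285 and 210 with median-of-ratios scaling. Of 256 E15.5 values of 16 named genes under these settings 241 kept their direction and side of the threshold, as did 202 of 225 adult values of 15 genes. No value changed sign, which is no check of the direction. These genes were named for groups that do not overlap, so leaving out a sample could not reverse a sign. The block, rounding, filter and eBayes settings leave the log2 change as it is. At E15.5, leaving out a KO sample or its same-numbered WT sample gives the same log2 change. The cause of the shifts in calls was not tested. Depth is unknown and values are rounded, which limits genes of a few units such as Polr2k.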

Other observations

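The subunits that belong to RNA polymerases I and III alone, which make ribosomal and transfer RNA, had 1 called gene. Polr1e, a polymerase I subunit, rose to 31 and 35 units in mCKO apex, against 24 and 19 units in CTR apex (log2 change 0.60, limma adjusted p = 0.0175). The log2 change was 0.36 within number 1 and 0.85 within number 2. As for adult Polr2a, the SE rests on spread pooled over genes, and the call was not followed under other settings. It was 1 of 19 tested, where 2.34% of all tested genes were called higher, and 12 of the 19 were positive (63.2%, where 57.9% of all tested genes were), with a median of 0.09. At E15.5 Polr1e was 42, 46 and 41 units in KO, against 47, 43 and 47 in WT (-0.09), and 0 of 14 subunits were called (limma, 0 at an unadjusted p of 0.05), with a median of -0.06. Polr3gl, a polymerase III subunit, was lower in both models without passing, at 25, 23 and 25 units in KO and 29, 31 and 29 in WT (-0.28), and 27 and 26 in mCKO and 32 and 33 in CTR (-0.28).

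The complex that activates small nuclear RNA genes had 0 of 3 genes called at E15.5 (1 positive, 2 negative) and 0 of 5 in the adult (2 positive, 2 negative and 1 at 0), with 0 at an unadjusted p of 0.05 by limma in both. Over all tested genes, 0.632% were called at E15.5 and 3.29% in the adult.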
